A study of Mus musculus with 4 samples.

Results

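The 10 genes described here carry the cell from G1 into S phase: the D cyclins Ccnd1, Ccnd2 and Ccnd3, the E cyclins Ccne1 and Ccne2, the kinases Cdk4 and Cdk6, the pocket proteins Rb1 and Rbl1, and the transcription factor E2f1. They were taken by gene symbol from the 43629 Ensembl genes of a poly(A) RNA sequencing experiment on mouse embryonic stem cells. All 10 passed the filter on low counts, which left 17022 genes. The experiment holds 4 libraries, 2 from Drosha knockout and 2 from wild-type cells, all of 129/Ola background, blastocyst origin and grown in serum plus LIF. In knockout library 1 (KO1) the deletion takes out the proline-rich region of Drosha, and in knockout library 2 (KO2) the arginine- and serine-rich region. Both alleles were made with paired CRISPR/Cas9 cuts, both libraries are labelled passage 7, and their titles also carry a mark, d5, that the labels do not explain. The wild-type libraries are E14 cells, a widely used embryonic stem cell line, at passage 33 (WT1) and passage 42 (WT2), and are labelled as re-used. Genotype, passage and the origin of the libraries therefore cannot be told apart. Each knockout allele is represented by 1 library, and the labels do not name separate cultures. The p-values below thus describe the spread between these 4 samples alone, and that spread may be technical.

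DROSHA is the nuclear nuclease that starts microRNA maturation. In most cells D cyclins activate CDK4 and CDK6 in response to growth signals, these kinases and cyclin E with CDK2 phosphorylate the pocket proteins, and E2F factors are then free to switch on genes for DNA replication. Mouse embryonic stem cells have a short G1 phase with high cyclin E activity and weak use of the D cyclin and pocket protein switch, and loss of microRNAs is reported to slow their passage from G1 into S. Whether the transcripts of this switch differ between the knockout and wild-type cells is the question addressed here.

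Library totals ran from 29264632 to 42322129 counts. Drosha itself, the check of the labels, had 158 CPM (counts scaled to the TMM-adjusted size of each library) in both knockouts, 364 in WT1 and 357 in WT2, a log2 fold change of -1.19 ± 0.11 (adjusted p = 0.0482, and -1.35 ± 0.09 with the trends described below removed). A remaining transcript does not show which part of the gene was deleted. All 10 pluripotent stem cell markers stood at 143.5 CPM or more in every library. Neurectoderm markers summed to 112 (KO1) and 113 CPM (KO2) in knockout cells, against 59.0 (WT1) and 68.1 CPM (WT2) in wild-type cells. Of 5 tested, 2 rose (Pax6 and Tubb3). Tubb3 alone had 73.2 and 71.3 CPM in KO1 and KO2, against 30.5 and 35.55 CPM in WT1 and WT2. With the trends described below removed, Tubb3 went from 1.13 to 0.15, Nes from 0.64 to 0.03 and Sox1 from 0.88 to 0.07. Pax6, with 1.59 and 1.94 CPM in the knockouts, was then at 2.63. Map2 had a fitted change of -0.26, and 0.05 with trends removed. Trophoblast markers summed to 106 (KO1) and 103 CPM (KO2), against 56.7 (WT1) and 46.8 CPM (WT2), and 1 of 3 tested rose (Tfap2c), while Cdx2 and Gata3 were at 0.23 CPM or less in every library. Tfap2c made up most of each sum, with 84.7 and 83.35 CPM in KO1 and KO2, against 37.8 and 41.4 CPM in WT1 and WT2. Krt7 was also higher in both knockouts (6.16 and 5.61 CPM, against 3.81 and 0.61 CPM), and Krt8 overlapped between the groups. Elf5 was lower in both knockouts, at 0.03 and 0.02 CPM against 0.70 and 0.06 CPM. The part of neurectoderm or trophoblast cells in the results below was not tested. The knockout libraries were close to each other and the wild-type libraries were not. A chi-square over 14837 genes gave 2.26 per degree of freedom between KO1 and KO2, which is beyond sampling noise. It gave 167 over 14688 genes between WT1 and WT2, and also 167 over 14813 genes between KO1 and WT1. Over all genes tested the wild types thus differed from each other about as much as KO1 did from WT1, with median absolute log2 ratios of 0.45 and 0.47. For the 10 genes the median absolute log2 ratio was 0.07 between KO1 and KO2, 0.34 between WT1 and WT2 and 0.53 between KO1 and WT1. The fold change also followed transcript GC content over all genes. The median log2 fold change was 0.77 for the 3114 genes of 55 to 60% GC and -0.51 for the 3109 genes of 40 to 45% GC. The wild types differed from each other along GC content too. In the same classes the median log2 ratio of WT2 over WT1 was -0.40 and 0.25, and that of KO1 over KO2 was 0.046 and -0.034. Fold changes of the genes described below are therefore also given with smooth GC and length trends removed.

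Across the 10 genes the picture was mixed. E2f1, Ccnd1, Ccnd3, Cdk4 and Rb1 were higher in both knockout libraries than in both wild-type libraries, Ccnd2, Ccne2, Rbl1 and Ccne1 were lower in both, and Cdk6 overlapped. Such separation was common in these data: knockout libraries lay wholly above the wild types for 36.5% of all genes tested and wholly below for 34.8%. None of the 10 passed an adjusted p of 0.05 in edgeR's quasi-likelihood test, where 3.51% of all genes tested rose and 1.94% fell. The smallest adjusted p of any gene in that test was 0.0482, and that of the 10 genes was 0.0502. Every gene called thus lay just inside the threshold, and passing or missing it separates genes poorly here. At an unadjusted p under 0.05 there were 4 of the 10 higher and 3 lower, beside 19.4% and 17.7% of all genes. DESeq2 called 2 higher (E2f1 and Ccnd1) and 3 lower (Ccnd2, Ccne2 and Rbl1), beside 12.3% and 10.2% of the genes it tested. Without WT1 or WT2, fits in which the lone wild type is assumed to vary like the knockout pair, edgeR called 10 and 9 of the 10, and 13658 and 12089 of all genes. The median log2 fold change of the 10 was -0.05, and that of all genes tested was -0.02.

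**Figure D1:**
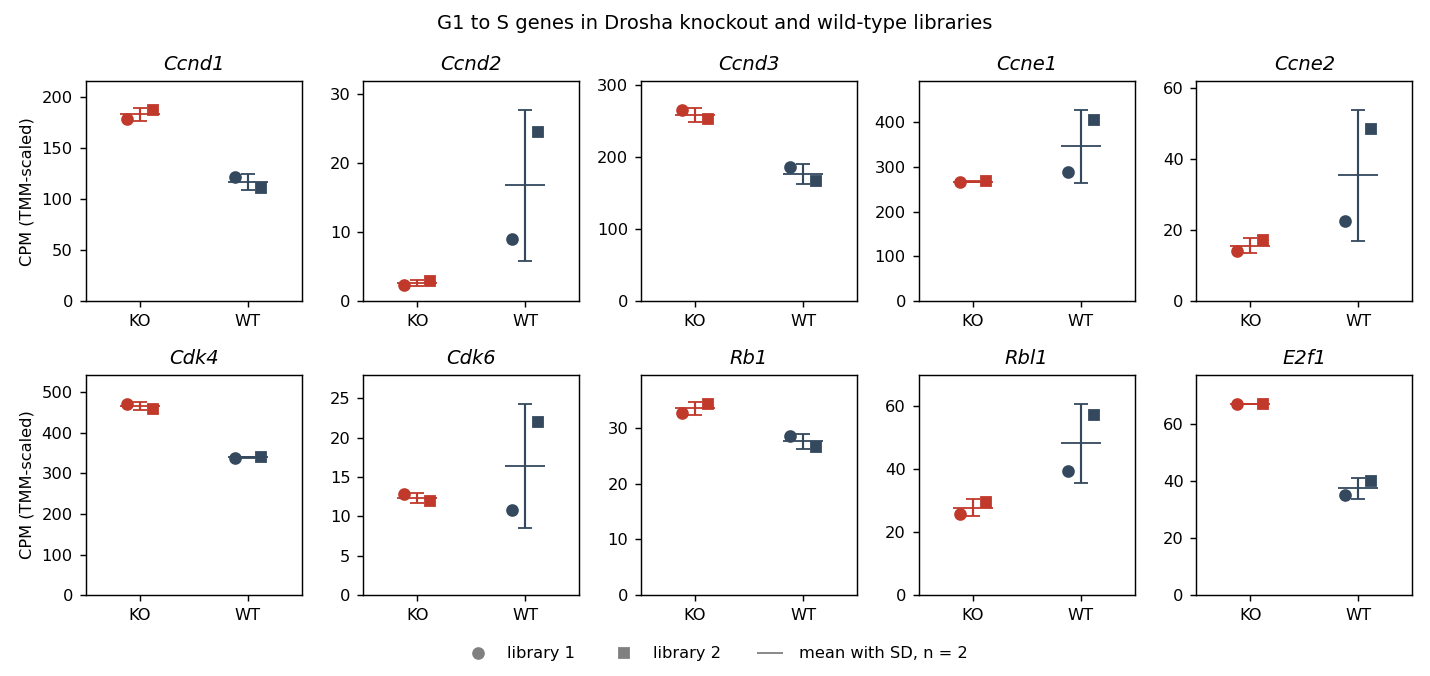
TMM-scaled CPM of each of the 10 genes (vertical axes from 0) in the knockout libraries (red, left) and the wild-type libraries (dark, right); circles are library 1, squares library 2, and bars the mean with SD of 2 libraries. The knockout points lie close together in every panel, while Ccnd2, Ccne2 and Cdk6 differ more than 2-fold between WT1 and WT2.

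Ccnd2, which encodes cyclin D2, showed the widest difference among the 10 genes. The gene (ENSMUSG00000000184, build mm10, chromosome 6, 127125162 to 127152193, minus strand) had 2.37 (KO1) and 2.95 CPM (KO2) in knockout cells, against 9.04 (WT1) and 24.5 CPM (WT2) in wild-type cells. These values rest on 73 and 131 counts in the knockouts and 361 and 881 counts in the wild types. Every knockout value lay below every wild-type value, but the wild types differed 2.71-fold between themselves. The mean was 2.66 ± 0.41 CPM in knockout and 16.8 ± 10.9 CPM in wild-type cells (SD, n = 2 each). The log2 fold change was -2.65 ± 0.56 (SE), with an adjusted p of 0.0615 in edgeR and 5.39e-06 in DESeq2. After removal of the GC and length trends it was -2.34 ± 0.56, and it was -1.73 without WT2 and -3.17 without WT1. Endoderm markers were also lower in the knockouts, and higher in WT2 than in WT1. Their summed level over 10 markers was 68.6 and 68.2 CPM in the knockouts and 242 (WT1) and 417 (WT2) CPM in the wild types. Of 8 markers tested, 3 fell (Cubn, Lama1 and Col4a1) and 0 rose, and Afp had no count in either wild-type library. The part of such cells in the Ccnd2 result was not tested, and in bulk RNA fewer cells of a type and less RNA per cell cannot be told apart.

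Ccnd1, which encodes cyclin D1, stood higher in the knockouts. The gene (ENSMUSG00000070348, chromosome 7, 144929931 to 144939925, minus strand) had 178 (KO1) and 187 CPM (KO2) in knockout cells, against 122 (WT1) and 111 CPM (WT2) in wild-type cells. The groups did not overlap and both pairs were tight, at 183 ± 6.19 CPM in knockout and 116 ± 7.62 CPM in wild-type cells (SD, n = 2 each). Its log2 fold change of 0.65 ± 0.12 had an adjusted p of 0.0552 in edgeR and 0.0365 in DESeq2. The value moved little with GC and length trends removed (0.59 ± 0.10, adjusted p = 0.0985 in edgeR), and it lay between 0.57 and 0.79 over the 13 alternatives. Ccnd3, which encodes cyclin D3 (ENSMUSG00000034165, chromosome 17, 47505051 to 47599691, plus strand), had 266 and 252 CPM in KO1 and KO2, against 187 and 167 CPM in WT1 and WT2. The groups were again apart, with a log2 fold change of 0.55 ± 0.13 (adjusted p = 0.0671). This one did not keep its direction: with GC and length trends removed it was -0.17 ± 0.15.

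Per kilobase of exon, the scale on which paralogues can be set side by side, Ccnd1 and Ccnd3 made up nearly the whole D cyclin pool. Exon length here counts the exons of all transcripts of a gene together, 4709 bases for Ccnd1 and 8775 for Ccnd3. The summed level of the 3 D cyclins was 68.4 and 68.8 CPM per kb in KO1 and KO2, against 48.1 and 45.2 CPM per kb in WT1 and WT2. Ccnd2 took 0.368% and 0.456% of that sum in the knockouts and 2.00% and 5.76% in the wild types. Ccnd1 took 55.4% and 57.8% in the knockouts and 53.8% and 52.2% in the wild types, and Ccnd3 took 44.3% and 41.8% against 44.2% and 42.04%. The share of Ccnd3 overlapped between the groups, and its higher level in the knockouts, which enters the sum, turned to -0.17 on the log2 scale with trends removed. Without division by length Ccnd3 came first, with 58.3% of the D cyclin sum in the knockouts and 57.0% in the wild types, against 41.1% and 37.6% for Ccnd1. With 2 libraries against 2, an exact two-sided permutation test cannot go below p = 0.333, so shares are given without a test.

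**Figure D2:**
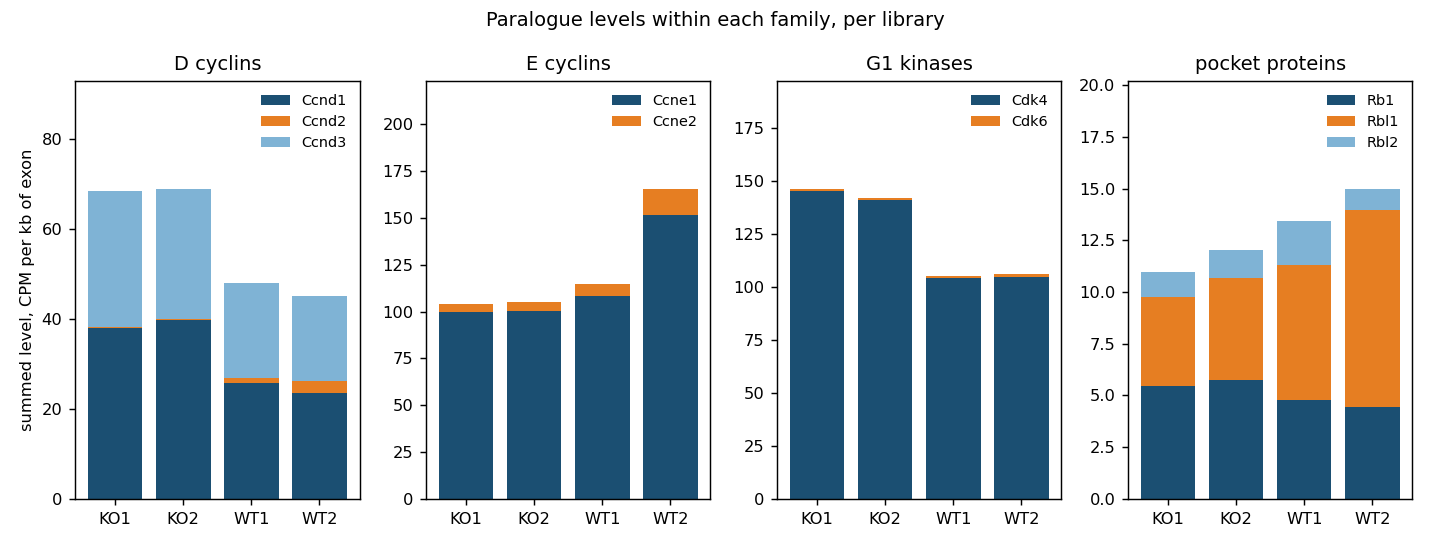
Summed level of each gene family in every library, in TMM-scaled CPM per kilobase of exon (vertical axes from 0), with the knockout libraries left of the wild types and the segments showing each paralogue. The D cyclin sum is 68.4 and 68.8 in KO1 and KO2 and 48.1 and 45.2 in WT1 and WT2, and the Rbl1 segment is largest in WT2.

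DROSHA starts microRNA maturation, but microRNA levels are not among the values used here. The 3' UTRs of the 10 genes were searched for the 7-base matches to microRNA seeds (bases 2 to 8, in capitals). The seeds were those of 5 microRNAs with reported roles in the cell cycle. Shown are the 3 whose matches were found in 5 of the 10 genes each: miR-294, from a cluster that dominates the microRNAs of mouse embryonic stem cells (chr7:3220691-3220712, plus strand), miR-17 (chr14:115043684-115043706, plus strand) and miR-16 (chr3:69009918-69009939, plus strand). Mature sequences are from RefSeq, build GRCm38.p6.
miR-294-3p: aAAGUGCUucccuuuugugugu
miR-17-5p: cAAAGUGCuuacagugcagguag
miR-16-5p: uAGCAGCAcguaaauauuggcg
One match of each D cyclin and of Ccne1 and both matches of E2f1 are printed as the messenger strand of GENCODE M21 transcripts, with the matched letters in capitals.
Ccnd1 miR-294 match: ccattccatttcaaAGCACTTttgg
Ccnd2 miR-294 match: cattccattagaaaAGCACTTtgaa
E2f1 miR-17 match, upstream: ggtgggctctaactGCACTTTtggt
E2f1 miR-17 match, downstream: ccaccctccagtctGCACTTTgatt
Ccnd3 miR-16 match: actgttgctttgctTGCTGCTtagc
Ccne1 miR-16 match: tcttattttgtaagTGCTGCTatgt
The miR-294 match is AGCACTT and the miR-17 match GCACTTT, so they overlap by 6 letters, and the Ccnd1 and Ccnd2 stretches hold both. AGCACTT occurs in 14.7% of 21020 3' UTRs, GCACTTT in 11.75% and the miR-16 match TGCTGCT in 20.3%, and the UTRs have a median length of 961 bases. The UTRs of 7 of the 10 genes are longer than that median, from 1281 bases in E2f1 to 5173 in Ccnd2 and 10217 in Cdk6, and longer UTRs hold more matches by length alone. Those of Ccnd3 (915 bases), Cdk4 (899 bases) and Ccne1 (531 bases) are shorter.

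Genes with the same match did not share a direction. AGCACTT was present in Ccnd1 and Cdk4, which were higher in the knockouts, and in Ccnd2, Cdk6 and Rbl1, which had fold changes below 0. GCACTTT was present in Ccnd1, Rb1 and E2f1 on the higher side and in Ccnd2 and Rbl1 on the lower side. TGCTGCT was present in each D cyclin, in Ccne1 and, 3 times, in Cdk6, where the matches at UTR positions 5177 and 5180 overlap. With GC and length trends removed E2f1 (-0.18), Ccnd3 (-0.17) and Cdk6 (0.031) changed sides, while the other genes named here kept theirs. The let-7 match CTACCTC was present in Cdk4 alone of the 10, and the miR-34a match CACTGCC in Ccne2 and Cdk6. Over all 3' UTRs searched these matches occur in 9.025% and 14.3%. A match is a description of letters and not a measured site.

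Cyclin E binds CDK2 and drives entry into S phase. Ccne1 (ENSMUSG00000002068, chromosome 7, 38097984 to 38107534, minus strand) had 266 (KO1) and 267 CPM (KO2) in knockout cells, against 288 (WT1) and 403 CPM (WT2) in wild-type cells. The lower wild-type library was close to the knockouts, and the log2 fold change of -0.37 ± 0.20 did not pass (adjusted p = 0.240). It was -0.10 without WT2, -0.60 without WT1 and -0.64 ± 0.21 with GC and length trends removed. Ccne2 (ENSMUSG00000028212, chromosome 4, 11191351 to 11204779, plus strand) had 14.1 and 17.2 CPM in KO1 and KO2, against 22.5 and 48.5 CPM in WT1 and WT2. WT2 stood 2.16-fold above WT1, and the log2 fold change of -1.18 ± 0.42 had an adjusted p of 0.126 in edgeR and 0.0206 in DESeq2. The Ccne2 value was -0.50 without WT2 and -0.45 ± 0.30 with GC and length trends removed. Ccne1 carried 96.1% and 95.3% of the E cyclin level per kilobase in the knockouts and 94.4% and 91.6% in the wild types, so Ccne2 was the minor paralogue throughout.

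Cdk4 and Cdk6 encode the kinases that D cyclins activate. Cdk4 (ENSMUSG00000006728, chromosome 10, 127063534 to 127067920, plus strand) had 471.7 (KO1) and 458.5 CPM (KO2) in knockout cells, against 338.7 (WT1) and 339.5 CPM (WT2) in wild-type cells. Neither pair spread into the other, and the means were 465 ± 9.33 CPM in knockout and 339 ± 0.56 CPM in wild-type cells (SD, n = 2 each). The log2 fold change was 0.46 ± 0.11 (adjusted p = 0.0730 in edgeR and 0.156 in DESeq2), and 0.12 ± 0.10 with GC and length trends removed. Cdk6 (ENSMUSG00000040274, chromosome 5, 3341485 to 3531008, plus strand) had 12.8 and 11.9 CPM in KO1 and KO2, against 10.8 and 22.02 CPM in WT1 and WT2. The knockouts lay between the wild types, the log2 fold change was -0.41 ± 0.38 (adjusted p = 0.467), and it turned to 0.19 without WT2 and to 0.031 with trends removed. Per kilobase of exon Cdk4 supplied 99.4% of the sum of both kinases in each knockout library, against 99.3% in WT1 and 98.5% in WT2. Cdk6 transcripts were thus scarce in all 4 libraries.

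The pocket proteins hold E2F factors in check. Rb1 (ENSMUSG00000022105, chromosome 14, 73183673 to 73325822, minus strand), which encodes the retinoblastoma protein, had 32.8 and 34.4 CPM in KO1 and KO2, against 28.6 and 26.6 CPM in WT1 and WT2. The groups were apart by a small margin, with a log2 fold change of 0.28 ± 0.14 (adjusted p = 0.203), and the value was larger, 0.82 ± 0.16, with GC and length trends removed (adjusted p = 0.103). Rbl1 (ENSMUSG00000027641, chromosome 2, 157145893 to 157204534, minus strand) encodes p107, a pocket protein that is itself a known E2F target. It had 25.8 and 29.6 CPM in KO1 and KO2, against 39.3 and 57.1 CPM in WT1 and WT2. Its log2 fold change was -0.80 ± 0.23 (adjusted p = 0.0937 in edgeR and 0.0367 in DESeq2), and it was -0.28 ± 0.16 with trends removed, -0.49 without WT2 and -1.03 without WT1. The third pocket protein gene, Rbl2, overlapped between the groups, with 9.04 and 10.4 CPM in KO1 and KO2, against 16.1 and 7.64 CPM in WT1 and WT2 (log2 fold change -0.28 ± 0.41, adjusted p = 0.635, and 0.017 with trends removed).

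Within the pocket protein level per kilobase, Rb1 made up 49.7% (KO1) and 47.5% (KO2) in the knockouts and 35.4% (WT1) and 29.6% (WT2) in the wild types. Rbl1 made up 39.3% and 41.0% in the knockouts and 48.8% and 63.7% in the wild types. Rb1 was therefore the more abundant of the pair in both knockout libraries and Rbl1 in both wild-type libraries. Neither share overlapped between the groups, but both are parts of the same sum and do not move independently. The Rbl1 share of WT1 lay nearer to the knockouts than to WT2. By level, the knockouts lay wholly above the wild types for 36.5% of all genes tested and wholly below for 34.8%.

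E2f1 had the smallest p of the 10 genes in edgeR, and Ccnd2 in DESeq2. E2f1 encodes an activating E2F factor of S phase entry (ENSMUSG00000027490, chromosome 2, 154559407 to 154569892, minus strand). Its level was 67.2 CPM in both knockout libraries, against 35.0 (WT1) and 40.1 CPM (WT2) in wild-type cells. The groups did not overlap, at 67.2 ± 0.03 CPM in knockout and 37.5 ± 3.61 CPM in wild-type cells (SD, n = 2 each). An SD of 2 libraries can fall below counting error, as it did here in the knockouts and for Cdk4 in the wild types. It then understates the spread. The log2 fold change was 0.84 ± 0.14, with an adjusted p of 0.0502 in edgeR and 0.00942 in DESeq2. With 58.3% GC its transcript lies in the class of 3114 genes whose median log2 fold change was 0.77, and with GC and length trends removed E2f1 was at -0.18 ± 0.24 (adjusted p = 0.672). Its direction thus depended on that correction, as did those of Ccnd3 and Cdk6. The other 7 genes kept theirs in each of the 13 alternatives.

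**Figure D3:**
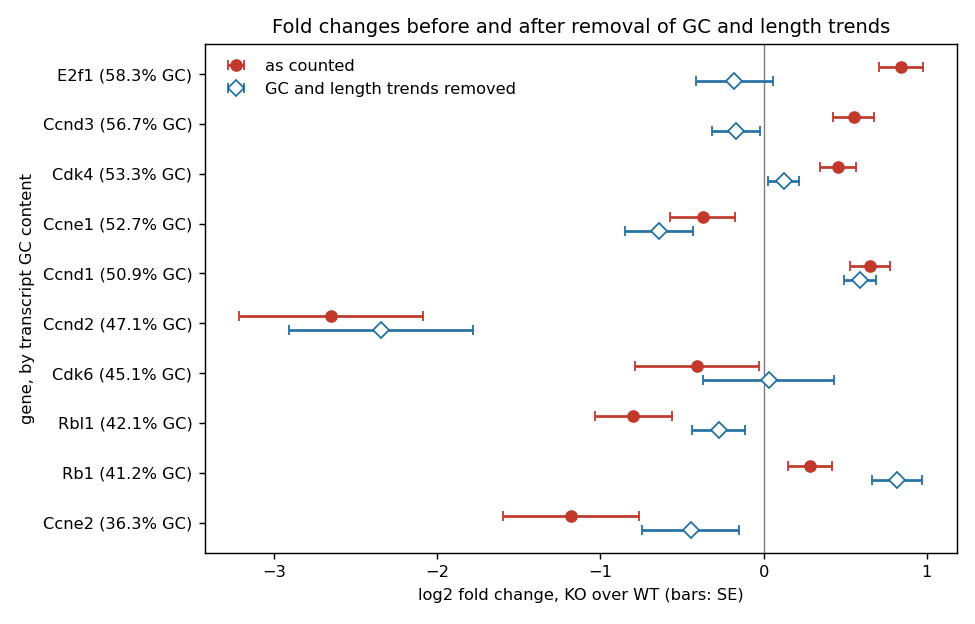
Log2 fold change of knockout over wild type for each of the 10 genes as counted (filled circles) and with GC and length trends removed (open diamonds), with bars of 1 SE, ordered by transcript GC content from the highest at the top. Ccnd1 moved least, to 0.59, E2f1 went to -0.18 and Ccnd3 to -0.17, and Rb1 moved up to 0.82.

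As E2F factors act at promoters, 250 bases before to 50 bases after the annotated start were searched for the E2F motif, written as TTTCCCGC, TTTGGCGC, TTTCGCGC or TTTGCCGC, on both strands. RefSeq promoters (build GRCm38.p6) were matched for 6 of the 10 genes, which does not include Ccnd1, Ccnd2, Ccne2 and Rb1. The E2f1 window (chr2:154569377-154569676) lies inside the GENCODE gene, which begins at 154569892 on the minus strand. That of Cdk6 (chr5:3343643-3343942) also lies inside its gene, which begins at 3341485. The sequence before the GENCODE start of these genes was therefore not searched. A motif was found in Rbl1, and in 2.26% of all 32851 promoters. The Rbl1 promoter (chr2:157204485-157204784, minus strand) is printed in full because it held the sole match in the windows searched. The motif is in capitals, 18 bases before the start.
Rbl1 promoter: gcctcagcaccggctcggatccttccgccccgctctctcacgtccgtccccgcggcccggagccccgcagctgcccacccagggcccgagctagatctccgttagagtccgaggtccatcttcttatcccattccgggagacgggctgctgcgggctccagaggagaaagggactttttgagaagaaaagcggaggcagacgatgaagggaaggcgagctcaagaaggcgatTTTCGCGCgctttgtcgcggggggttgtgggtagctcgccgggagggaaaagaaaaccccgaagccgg
Of the replication genes described below, 8 of the 19 with a promoter held such a motif. Letters that are absent from this window say nothing about binding elsewhere.

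In order of level per kilobase of exon, the knockout cells ranked Cdk4, Ccne1, Ccnd1, Ccnd3, E2f1, Rb1, Rbl1, Ccne2, Cdk6 and Ccnd2. Cdk4 had 145 and 141 CPM per kb there and Ccnd2 had 0.25 and 0.31 CPM per kb. Neighbours in that order were apart in both libraries except Rbl1 (4.31 and 4.94 CPM per kb) and Ccne2 (4.04 and 4.91 CPM per kb). In the wild types Ccne1 came first, with 108 and 151 CPM per kb, followed by Cdk4 with 104 and 105 CPM per kb. There E2f1 (11.1 and 12.7 CPM per kb), Ccne2 (6.43 and 13.9) and Rbl1 (6.56 and 9.53) did not separate from their neighbours, and neither did Ccnd2 (0.96 and 2.60) and Cdk6 (0.77 and 1.57). The leading transcripts in both groups were thus those of Cdk4 and cyclin E1.

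Some reads over these genes may belong to neighbours. Exons on the opposite strand overlap 23.4% of the exon bases of Ccnd1, 19.7% of those of Cdk4 (Tspan31) and 17.4% of those of Ccne2 (Ints8), and whether counting used the strand is not given in the sources used here. The neighbour over Ccnd1 had 7.21 to 9.15 CPM, Tspan31 had 56.7 to 76.4 CPM and Ints8 had 75.6 to 131 CPM. For Ccne2, with 14.1 to 48.5 CPM, that makes its level uncertain. Ints8, like Ccne2, was lower in the knockouts, with 76.6 and 75.6 CPM against 100.5 and 131 CPM in WT1 and WT2. Smaller overlaps included those of Rb1 with Rcbtb2 (8.11% of its exon bases) and Lpar6 (6.78%), and of Ccnd3 with Bysl (4.11%). These neighbours were higher in the knockouts, as Rb1 and Ccnd3 were, while Tspan31 was lower where Cdk4 was higher. In KO1, KO2, WT1 and WT2 Rcbtb2 had 26, 28.5, 16.1 and 12.9 CPM. In that order Lpar6 had 11.9, 11.9, 9.92 and 6.53 CPM, and Bysl 95.65, 96.3, 71.97 and 58.7 CPM. A processed copy, Ccnd3-ps, was counted apart at no more than 1.195 CPM.

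None of the 7 genes for inhibitors of cyclin-dependent kinases passed. A fitted change above 0 was found for 6 of them (4 with GC and length trends removed), beside 49.2% of all genes tested, and the median log2 fold change was 0.53 (0.16 with trends removed). Their median transcript GC content was 55.9%, in the class whose median over all genes was 0.77. DESeq2 called 2 of the 7 as higher, beside 12.3% of all genes, and 3 had an unadjusted p under 0.05 in edgeR, beside 37.1%. Cdkn1a, which encodes p21 and is a reported target of the miR-290 family, had 69.6 CPM in both KO1 and KO2, against 56.0 and 45.9 CPM in WT1 and WT2 (log2 fold change 0.45 ± 0.15, adjusted p = 0.117, and -0.0074 with trends removed). Named after its values were seen, Cdkn2a, which encodes p16 and p19ARF, had 7.07 and 6.36 CPM in the knockouts, against 2.00 and 0.31 CPM in the wild types (2.53 ± 0.87 on the log2 scale, adjusted p = 0.120, and 1.41 ± 0.70 with trends removed). Markers of fibroblasts and feeder cells summed to 59.9 and 54.95 CPM in KO1 and KO2, against 45.6 and 32.6 CPM in WT1 and WT2. Thy1 made up most of each sum, with 40.8 and 41.5 CPM in KO1 and KO2, against 31.5 and 25.9 CPM in WT1 and WT2. Its log2 fold change was -0.12 with trends removed. Acta2 was highest in WT1, at 5.56 CPM. Of 10 such markers 8 were tested, 7 of them with a fitted change above 0 and 0 past the threshold, and Dcn, Lum and Postn had no count in either wild-type library. The part of such cells in the Cdkn2a values was not tested.

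Of 15 other E2F, DP, pocket protein and MuvB genes 3 fell and 0 rose, beside 1.94% and 3.51% of all genes tested. A fitted change below 0 was found for 13 of the 15, beside 50.8% of all genes, and the median was -0.50 (-0.37 with trends removed). Tfdp1, which encodes the DP1 partner of E2F factors, fell to 104.5 and 105.3 CPM in KO1 and KO2, against 179 and 189 CPM in WT1 and WT2 (log2 fold change -0.81 ± 0.11, adjusted p = 0.0482). Lin54, a DNA-binding subunit of the MuvB complex, fell to 28.5 and 29.4 CPM, against 50.8 and 56.5 CPM (-0.89 ± 0.13, adjusted p = 0.0482). E2f8, an atypical repressor of E2F targets, fell to 18.3 and 17.2 CPM, against 34.5 and 43.5 CPM (-1.13 ± 0.18). Its adjusted p of 0.0499 lies just inside the threshold that E2f1 missed at 0.0502. With trends removed the values were -0.54 ± 0.09 for Tfdp1, -0.37 ± 0.10 for Lin54 and -1.11 ± 0.17 for E2f8, with adjusted p-values of 0.0985, 0.139 and 0.0947. Named after their values were seen, the activators E2f2 (27.1 and 26.9 CPM in KO1 and KO2, against 43.5 and 48.3 CPM in WT1 and WT2) and E2f3 (41.1 and 43.1 CPM, against 65.8 and 83.1 CPM) lay lower in the knockouts. Their adjusted p-values were 0.0534 and 0.0585, and their log2 fold changes of -0.77 and -0.82 were -1.52 and -0.74 with trends removed, where E2f1 was at -0.18.

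None of the S phase kinase genes or replication genes passed. Of 12 genes for CDK2, cyclin A and their regulators 9 had a fitted change below 0, 6 had an unadjusted p under 0.05, and DESeq2 called 1 higher and 3 lower (median log2 fold change -0.40, and -0.05 with trends removed). Cdk2, the partner of cyclins E and A, had 85.1 and 80.4 CPM in KO1 and KO2, against 97.4 and 92.2 CPM in WT1 and WT2 (-0.20 ± 0.12, adjusted p = 0.284, and -0.04 with trends removed). Ccna2, which encodes cyclin A2, had 237 and 236 CPM, against 325 and 479 CPM (-0.76 ± 0.22, adjusted p = 0.0926, and -0.44 ± 0.15 with trends removed). Cdc25a, the phosphatase that activates CDK2, had 93.6 and 94.9 CPM, against 138 and 163 CPM (-0.68 ± 0.14, adjusted p = 0.0588, and -0.31 ± 0.10 with trends removed). Over all genes tested, 50.8% had a fitted change below 0, 37.1% an unadjusted p under 0.05, and DESeq2 called 12.3% higher and 10.2% lower. Of 24 replication genes, 17 had a fitted change below 0, 12 had an unadjusted p under 0.05, and DESeq2 called 1 higher and 7 lower (median -0.37, and -0.14 with trends removed). Orc1, a subunit of the origin recognition complex, had the smallest p, with 99.9 and 102.5 CPM in KO1 and KO2, against 161 and 169 CPM in WT1 and WT2 (-0.71 ± 0.11, adjusted p = 0.05004, and -0.43 ± 0.10 with trends removed).

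Of 12 genes of G2 and mitosis, set beside these for contrast, 2 fell and 0 rose, beside 1.94% and 3.51% of all genes tested, with a median of -0.20 (-0.36 with trends removed). Mki67, the proliferation marker, fell to 233 and 238 CPM in KO1 and KO2, against 567 and 562 CPM in WT1 and WT2 (-1.26 ± 0.11, adjusted p = 0.0482, and -0.91 ± 0.09 with trends removed, adjusted p = 0.0924). Cdk1, the mitotic kinase, fell to 102 and 106 CPM, against 176 and 178 CPM (-0.77 ± 0.11, adjusted p = 0.0482, and -0.54 ± 0.09 with trends removed). None of the 5 calls over these lists was left with trends removed, where 0 of all 16903 genes tested were called. The smallest adjusted p of any gene in that edgeR fit was 0.0924, and Drosha was not called in it either. The calls over all genes and over these lists also depended on which library was left out.

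**Figure D4:**
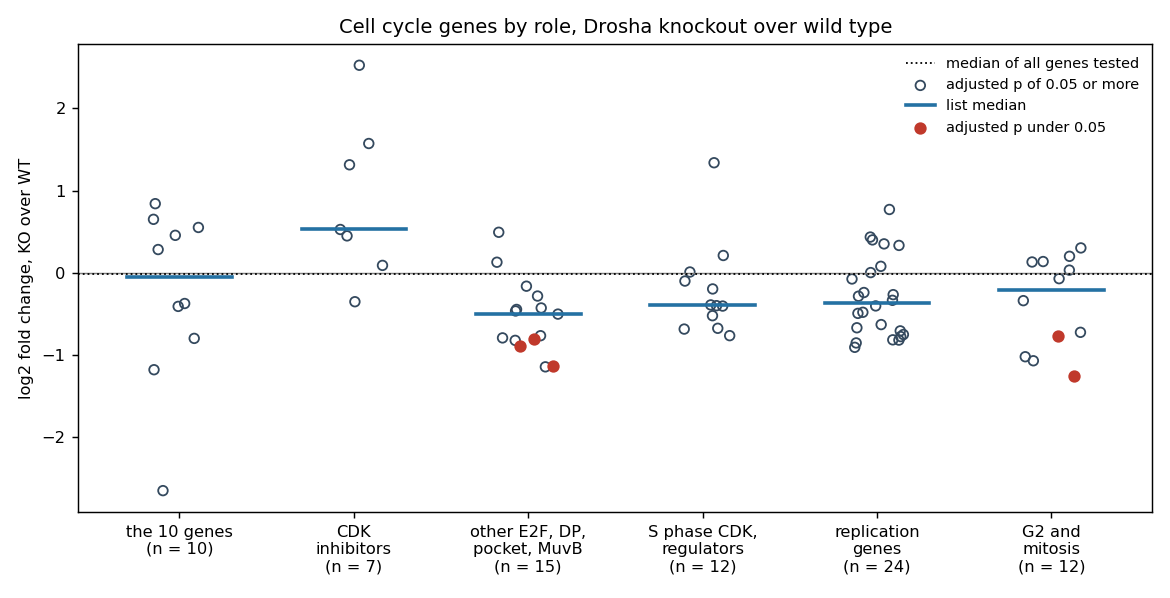
Log2 fold change of knockout over wild type for every gene of each list (points; filled where the adjusted p is under 0.05), with the list median as a bar and the median of all genes tested, -0.02, as a dotted line. The 5 filled points all lie below 0, and the 10 genes in the first column run from -2.65 to 0.84.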

How the data were processed

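The authors deposited unnormalised read counts for each Ensembl gene and library, made with STAR 2.4.2a and featureCounts 1.4.5-p1 on mm10, per the submitters' processing notes. The protocol was reverse-stranded, per the labels. The annotation release and counting options are not given in the sources used here. Names came from a gene name table (42462 of 43629 identifiers). Coordinates, exon length and GC content came from GENCODE M21. Exon length was the union of the exons of all transcripts of a gene, and GC content that of its longest transcript.

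The main test was edgeR's quasi-likelihood test (version 4.0.16, R 4.3.3) after TMM scaling and the default expression filter (minimum count 10, minimum total 15), with group as the only term. P-values were adjusted by Benjamini-Hochberg over all genes tested and called at 0.05. Fold changes are those of knockout over wild type, in log2, with their SE. DESeq2 1.42.0, other scalings, no filter, lowess GC and length offsets (span 0.3), a replicate block and leaving out each library were the alternatives. The test was checked on simulated data with the same dispersion in both groups and no GC trend. Those settings differ from these libraries, so the check does not cover their unequal spread. One count was worth 0.0236 to 0.0342 CPM. Members and lists were chosen with earlier results of these data known. Named genes were the 10 members, Drosha, Cdkn1a, Rbl2, Cdk2 and Ccna2, with up to 4 called genes per list and direction or else the gene of smallest p.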

Additional observations from a re-analysis of the deposited data

How the results depend on the processing

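The number of genes past the threshold, 927, was 1017 with DESeq2 size factors, 2663 with no expression filter, 3747 in the DESeq2 Wald test and 0 with upper-quartile scaling, library totals alone, GC and length trends removed, or the GC or the length trend alone removed (6267, 6116, 4269, 4174 and 6066 genes at an unadjusted p under 0.05 in edgeR). For the 10 genes it was 3 without the filter, 5 in DESeq2 and 0 with each other scaling or trend, and for the other cell cycle lists, 5 as reported, it was 16, 26 and, with upper-quartile scaling, library totals or any trend removed, 0. Leaving out a library gave 0 to 13658 genes, 0 to 10 of the 10 genes and 0 to 64 of the other lists: 0 or 22 genes without KO1 or KO2, and 13658 and 12089 without WT1 and without WT2, fits in which the lone wild type is assumed to vary like the knockouts. With a replicate block the calls were 1929 genes, 1 of the 10 (Ccnd2, adjusted p = 0.0193) and 11 in the other lists. The numbers pair different alleles and passages and share only a number, with a correlation of 0.05 between the deviations of KO1 and WT1. Directions turned for Ccnd3 (-0.17 with both trends removed, -0.21 with the GC trend alone), E2f1 (-0.18 and -0.17), Cdk6 (0.031 with both trends, and -0.84 to 0.19 over the libraries left out), Cdkn1a (-0.0074 with both trends) and Rbl2 (0.017 with both trends, and -0.70 to 0.36 over the libraries left out). The GC trend alone and the length trend alone were chosen after seeing the data. Without division by length, the Ccnd1 share of the D cyclins was 41.1% in knockout and 37.6% in wild-type cells (56.6% and 53.0% per kilobase), and the Cdk6 share of its pair was 2.59% and 4.59% (0.614% and 1.11% per kilobase). The cause of these differences was not tested. At this depth counting error limits genes under about 1 CPM, and of the 10 genes Ccnd2 had the fewest counts, 73 in KO1.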
